A study of Homo sapiens with 12 samples.

Results

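RCN1, SULF2, ANO1 and HYDIN are 4 of the 20033 annotated protein-coding genes and were chosen by the H3K27me3 peaks themselves. The rule asked for a mark that came within 1 kb of an annotated transcription start site (TSS) and that was found in all 4 Tau-KO peak lists but in neither WT list. A mark is the union of all peaks of the 6 lists that overlap by at least 1 bp. Since the choice used the presence of peaks in WT and Tau-KO lists, those patterns are described here and not tested. RCN1 (reticulocalbin 1) is a calcium-binding protein of the endoplasmic reticulum, and SULF2 is an extracellular sulfatase that removes sulfate groups from heparan sulfate chains. ANO1 (anoctamin 1) is a calcium-activated chloride channel, and HYDIN is a protein of the central apparatus of motile cilia.

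The cells were SH-SY5Y, a human neuroblastoma line of noradrenergic character, either expressing Tau (WT) or knocked out for Tau in the independent lines 231K and 232P. All cells were kept in the same medium without a treatment, and each genotype had biological replicates A and B, with 1 peak list per ChIP sample. Each Tau-KO line stands for its own derivation, so that line and knock-out cannot be told apart within a line. The WT lists held 285826 (A) and 222191 (B) peaks, the 231K lists 271413 and 212347, and the 232P lists 147118 and 199677. The number of reads is not in the lists, so that depth is not known. The genome-wide background floor, that is, the lowest local background of a list, is given instead. This floor was 1.52 and 1.38 reads in WT A and B, 1.44 and 1.40 in 231K, and 1.01 and 1.27 in 232P. It was lowest in 232P A. Median peak width went with the replicate letter in every genotype, with 441, 440 and 335 bp in the A lists against 682, 688 and 666 bp in the B lists of WT, 231K and 232P. Its part in the results below was not tested.

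H3K27me3 is written by the Polycomb Repressive Complex 2 (PRC2), a histone methyltransferase that keeps developmental genes silent in cells that do not use them. The mark forms domains of many kilobases over silenced promoters, most often over promoters rich in CpG dinucleotides, and it is sparse at active promoters. Of 8 developmental genes of other lineages that PRC2 is known to cover, 6 had a TSS peak in all 6 lists, whereas NKX2-1 lacked it in 231K B and MYOD1 had it in both WT lists and 232P A. Of 8 genes that every cell uses, 7 had no TSS peak in any list and the X-linked HPRT1 had a peak in all 6, beside 78.1% of all protein-coding genes with a TSS peak in no list and 11.4% in all 6. TH and DBH, enzymes of noradrenaline synthesis that noradrenergic neuroblastoma cells use, had no TSS peak in any list.

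At the level of promoters, the pattern by which the 4 genes were chosen did not hold for any of them. When each list was judged by its own peaks within 1 kb of any annotated TSS, RCN1 and HYDIN were marked in all 6 lists. RCN1 was so at its main TSS, but HYDIN only at start sites inside the gene, and its main TSS had no peak in any list. ANO1 was marked in both WT lists and in 3 Tau-KO lists, all but 231K A. SULF2 was marked in WT B, 231K A and 232P B. The merged marks were thus present only in Tau-KO lists, while a WT list had another peak in the window of the very same start site for RCN1 (WT A), ANO1 (WT B) and HYDIN (WT B), and only in the windows of other start sites for SULF2 (WT B). Of the 20033 protein-coding genes, 6 (0.03%) had a merged TSS mark in all 4 Tau-KO lists and neither WT list, and 143 (0.714%) had one in both WT lists and no Tau-KO list. By the lists' own peaks these counts were 2 (0.00998%) and 40 (0.2%), and neither of the 2 genes was among the 4. Because the rule used this contrast, nothing is read from these shares about the 4 genes.

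**Figure D1:**
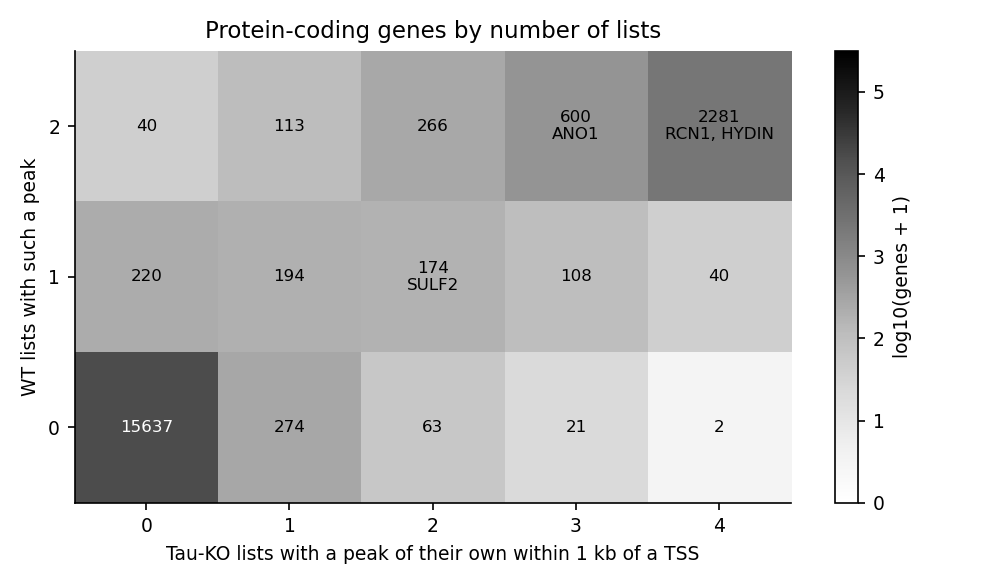
Number of protein-coding genes by how many Tau-KO lists (horizontal axis, 0 to 4) and WT lists (vertical axis, 0 to 2) had a peak of their own within 1 kb of an annotated TSS, with shading by log10(genes + 1). RCN1 and HYDIN fall among the 2281 genes marked in all 6 lists, ANO1 and SULF2 fall in fields with WT lists, and the field of 4 Tau-KO and 0 WT lists holds 2 genes. HYDIN was marked only at start sites other than its main TSS.

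The sequences at stake are shown first for the promoters, since the question is which start site a mark belongs to. These RefSeq stretches (GRCh38, equal to hg38 at these positions) span 250 bases before to 50 bases after the TSS and are written 5′ to 3′ in the direction of transcription, with CG in capitals. The SULF2 and ANO1 stretches belong to the start site that the mark reaches. The RCN1 stretch belongs to the main TSS, and a HYDIN entry was not used here.
SULF2, chr20:47785432-47785731, minus strand: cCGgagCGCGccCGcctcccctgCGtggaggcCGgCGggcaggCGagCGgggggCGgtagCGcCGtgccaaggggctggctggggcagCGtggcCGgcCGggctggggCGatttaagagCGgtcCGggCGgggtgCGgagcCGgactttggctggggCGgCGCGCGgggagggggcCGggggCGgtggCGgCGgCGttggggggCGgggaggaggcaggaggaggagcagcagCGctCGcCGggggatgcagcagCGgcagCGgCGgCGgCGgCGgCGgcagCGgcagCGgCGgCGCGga
ANO1, chr11:69985657-69985956, plus strand: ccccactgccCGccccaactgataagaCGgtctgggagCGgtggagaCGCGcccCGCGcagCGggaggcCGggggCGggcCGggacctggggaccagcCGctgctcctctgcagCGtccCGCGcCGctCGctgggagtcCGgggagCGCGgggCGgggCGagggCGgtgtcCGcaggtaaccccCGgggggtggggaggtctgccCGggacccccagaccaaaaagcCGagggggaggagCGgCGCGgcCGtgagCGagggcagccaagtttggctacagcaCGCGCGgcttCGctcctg
RCN1, chr11:32090824-32091123, plus strand: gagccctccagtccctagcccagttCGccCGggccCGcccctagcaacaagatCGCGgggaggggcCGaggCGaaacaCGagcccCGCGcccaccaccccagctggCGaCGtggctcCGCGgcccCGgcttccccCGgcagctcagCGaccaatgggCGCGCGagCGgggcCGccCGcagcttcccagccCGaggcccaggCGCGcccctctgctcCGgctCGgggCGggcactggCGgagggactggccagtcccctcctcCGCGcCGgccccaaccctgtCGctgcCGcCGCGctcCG
These promoters hold 46 (SULF2), 36 (ANO1) and 38 (RCN1) CG dinucleotides, and 97.1%, 87.3% and 90.1% of the 35116 RefSeq promoters of the same length held fewer. The median promoter held 14, and 96.0% held at least 1.

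The marks themselves lay beside these stretches and had a different composition. The following 101 bases are centred on the strongest Tau-KO summit of the RCN1, SULF2 and ANO1 marks, in the direction of transcription of the gene, again with CG in capitals.
RCN1, 231K A, chr11:32093968-32094068, plus strand: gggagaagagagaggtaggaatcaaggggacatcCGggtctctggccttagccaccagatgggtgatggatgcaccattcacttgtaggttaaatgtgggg
SULF2, 231K A, chr20:47783630-47783730, minus strand: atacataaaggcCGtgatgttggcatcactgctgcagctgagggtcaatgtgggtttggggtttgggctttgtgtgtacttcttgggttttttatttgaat
ANO1, 231K B, chr11:69986660-69986760, plus strand: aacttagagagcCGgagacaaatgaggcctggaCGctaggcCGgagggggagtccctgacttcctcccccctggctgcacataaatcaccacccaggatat
Over its whole length, the RCN1 mark held 20 CG in 2230 bp, the SULF2 mark 24 in 1584 bp, the ANO1 mark 14 in 620 bp and the HYDIN mark 9 in 1034 bp. Relative to the number expected from the base composition, CG was present at 0.153 in the RCN1 mark, 0.261 in SULF2, 0.417 in ANO1 and 0.234 in HYDIN, beside a median of 0.169 over all 279786 marks. In the 1 kb on each side of the main TSS the same ratio was 0.786 for RCN1, 0.906 for SULF2, 0.724 for ANO1 and 0.445 for HYDIN, beside a median of 0.636 over all protein-coding genes. The marks thus had lower ratios than the surroundings of the main TSS in all 4 genes, a direction that the 2 medians also show. The main TSS was 91148 bp from the ANO1 mark and 363430 bp from the HYDIN mark, so that it is not the start site these marks reach. Among all marks, the ratio was above that of 95.3% for ANO1, 79.0% for SULF2, 72.5% for HYDIN and 43.6% for RCN1.

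The HYDIN mark differed from the other 3 in that it has a near-copy elsewhere. It aligned over 1034 bp with 98.6% identity to chr1:146848266-146849295 in HYDIN2, a copy of HYDIN on chromosome 1. In all it had 113033 alignments elsewhere, so that it also holds repeated sequence. The RCN1 and ANO1 marks had no alignment elsewhere on chromosomes 1 to 22, X and Y, and the SULF2 mark had 1, of 800 bp at 82.2% identity. At the HYDIN2 copy, 231K A had 1 peak (fold enrichment 4.10) and 231K B had 2 (strongest 4.06), whereas WT A, WT B, 232P A and 232P B had none. How reads that map to both places were treated is not given in the sources used here, and its part in the HYDIN values was not tested.

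The RCN1 mark (chr11:32092544-32094773, hg38) lay in intron 1 of the main transcript, which has 6 exons, and overlapped no exon of any RCN1 transcript. Its near edge was 934 bp downstream of an alternative TSS at 32091610, which lies 536 bp downstream of the main TSS at 32091074. From the main TSS the gap was 1470 bp, outside the window. In 231K A the mark consisted of a peak of 1015 bp with a fold enrichment of 4.92 and a -log10 q of 4.77. In 231K B it consisted of 3 peaks, the strongest at 3.33 and 2.46. In 232P A there was a peak of 488 bp at 3.48 and 1.81, and in 232P B a peak of 853 bp at 3.97 and 3.03. The value of 231K A thus stood above the other 3 lists, and no base of the mark was covered in more than 2 of the 4 lists. Of the peaks of the mark, only that of 231K B at chr11:32092544-32092889, with a fold enrichment of 2.84, reached the window. The peak of 232P B overlapped this 231K B peak, and the peaks of 232P A and 231K A entered the mark through further overlaps inside the intron.

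At the main RCN1 promoter, all 6 lists had a peak just upstream of the TSS. WT A had a peak at chr11:32090294-32090704 with a fold enrichment of 3.97, and WT B at chr11:32089304-32090105 with 4.62. In 231K the peaks upstream of the main TSS had fold enrichments of 4.51 (A, chr11:32090433-32090634) and 5.63 (B, chr11:32086328-32090707). In 232P they had 2.71 (A, chr11:32089708-32090612) and 2.66 (B, chr11:32088791-32090538). The peaks of WT A, 231K A, 231K B and 232P A also reached the window of the alternative TSS to which the mark belongs. Those of WT B and 232P B did not reach it. Fold enrichments are compared next. The WT and 231K lists overlapped in these values, and both 232P lists lay below them. Summits had 9 and 10 reads in WT A and B, 10 and 13 in 231K, and 7 and 8 in 232P. In 232P the local background was 1.95 (A) and 2.39 reads (B), above the floors of 1.01 and 1.27. In WT it was at the floor, with 1.52 and 1.38 reads. The part of this background in the lower fold enrichments of 232P was not tested. The upstream peaks were the inner end of a domain over the 20 kb upstream of the gene, of which peaks covered 59.1% in WT A, 68.5% in WT B, 61.5% and 72.0% in 231K A and B, and 22.9% and 65.5% in 232P A and B. The domain was thus present in WT and Tau-KO lists alike, with the lowest coverage in 232P A, the list with the lowest background floor. Peaks also lay in the 20 kb downstream of the gene in every list. They covered 25.9% and 37.4% of it in WT A and B, 17.5% and 35.5% in 231K, and 4.92% and 29.9% in 232P. Over the RCN1 gene body coverage was 1.95% in WT A and 0% in WT B, and 9.97%, 7.8%, 7.0% and 9.44% in 231K A, 231K B, 232P A and 232P B. This coverage includes the mark, by which the gene was chosen. Outside the mark, neither WT B nor 231K B had a peak in the gene body. 232P A had a peak of 538 bp at chr11:32096254-32096791 (fold enrichment 3.17) and 232P B of 530 bp at chr11:32095811-32096340 (3.09), at a place where the other 4 lists had none. WT A had a single peak in the gene body, at chr11:32097674-32097958 with a fold enrichment of 2.58, and 231K A had a peak over the same stretch with 3.69.

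The SULF2 mark (chr20:47782960-47784543) lay in intron 1 of the main transcript, which has 21 exons, at 938 to 2521 bp downstream of the main TSS at 47785481. It was the only mark of the 4 that reached the window of a main TSS. In 231K A the strongest peak had a fold enrichment of 4.51 and a -log10 q of 4.05, with a summit of 10 reads. In 231K B the peak had 3.81, 3.4 and 9 reads. In 232P A it had 3.48, 1.81 and 6 reads, and in 232P B 3.91, 3.03 and 8 reads. Values in 231K A were the highest and those in 232P A the lowest, and up to 3 of the 4 lists shared a base, over 285 bp. Only a second, weaker peak of 231K A (chr20:47784195-47784543, fold enrichment 3.69) reached into the window, and the peaks of 231K B, 232P A and 232P B began 1380, 1234 and 1516 bp downstream of the TSS.

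Around SULF2, H3K27me3 was sparse in every list. The gene with 20 kb on each side held 8 peaks over all 6 lists, of which 5 made up the mark. WT A had none, and its nearest peak was 48585 bp from the mark. WT B had a peak at chr20:47786997-47787559 with a fold enrichment of 2.94, a -log10 q of 1.81 and a summit of 6 reads, 2453 bp from the mark. 232P B had a peak over the same stretch (chr20:47786879-47787591) with a fold enrichment of 4.42 and 10 reads. These peaks of WT B and 232P B lay within 1 kb of 5 other SULF2 start sites, 573 to 1135 bp upstream of the main TSS. SULF2 was thus the gene of the 4 without a WT peak in the window of the marked TSS, although it had a WT B peak in the windows of neighbouring start sites.

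The ANO1 mark (chr11:69986550-69987169) lay 643 to 1262 bp downstream of the TSS at 69985907. This start site belongs to the transcript ENST00000531349.6 and lies 92410 bp upstream of the main TSS at 70078317. The mark overlapped no exon. The peak of 231K A, at chr11:69986970-69987169, had a fold enrichment of 3.28 and a -log10 q of 2.12 and did not reach the window. Those of 231K B (4.17 and 3.83), 232P A (3.48 and 1.81) and 232P B (2.66 and 1.60) did. The highest value was that of 231K B and the lowest that of 232P B, where the local background of 2.39 reads was 1.89 times the floor. At most 3 lists shared a base, over 58 bp, and the peaks of 231K A and 231K B did not overlap each other. WT B had a peak on the other side of the same TSS, at chr11:69984538-69984958, with a fold enrichment of 4.62, a -log10 q of 4.45 and 10 reads, more than any of the 4 Tau-KO peaks of the mark. 232P A had a peak over the same stretch with a fold enrichment of 4.02. WT A had no peak in that window, and its nearest, at chr11:69988331-69988524, lay 1161 bp downstream of the mark with a fold enrichment of 2.95.

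At the main ANO1 promoter, peaks were present in 5 of the 6 lists. WT A had a peak at chr11:70076528-70077572 with a fold enrichment of 3.65, and WT B at chr11:70076679-70078195 with 4.20. 231K B had 3.75 (chr11:70077425-70078179), 232P A had 4.47 (strongest, chr11:70077715-70077889) and 232P B had 3.53 (chr11:70077140-70077473). The WT values lay within the range of the Tau-KO values, and 231K A had no peak in this window. Of the 52 peaks in the locus, 12 lay within 1 kb of a start site, and all 52 were low, with fold enrichments from 2.48 to 4.62 and summits of 6 to 11 reads.

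The HYDIN mark (chr16:70866259-70867292) overlapped exon 67 of the 86 exons of the main transcript. It was assigned to a promoter only through the TSS at 70866297 of ENST00000378856.8, a transcript annotated as subject to nonsense-mediated decay, which lies 364425 bp downstream of the main TSS at 71230722. The mark extended from 995 bp upstream to 38 bp downstream of this TSS. In 231K A its peak had a fold enrichment of 5.19, a -log10 q of 5.59 and 13 reads, above 90.5% of the peaks of that list by -log10 q. In 231K B it had 3.25, 2.43 and 7 reads, and in 232P A 3.48, 1.81 and 6 reads. In 232P B the values were 2.36, 1.20 and 7 reads, above 2.09% of the peaks of that list and with a q-value of 0.0625. By fold enrichment and -log10 q, HYDIN thus held both the strongest and the weakest of the 16 values at the 4 marks, and at most 3 lists shared a base, over 39 bp. WT B had a peak 215 bp from the mark, at chr16:70865617-70866043, in the window of the same TSS, with a fold enrichment of 3.36 and 7 reads. 231K A (3.28 and 7 reads) and 231K B (chr16:70865176-70865791, 3.33 and 7 reads) had peaks that overlapped it. The nearest peak of WT A was 1276 bp from the mark.

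**Figure D2:**
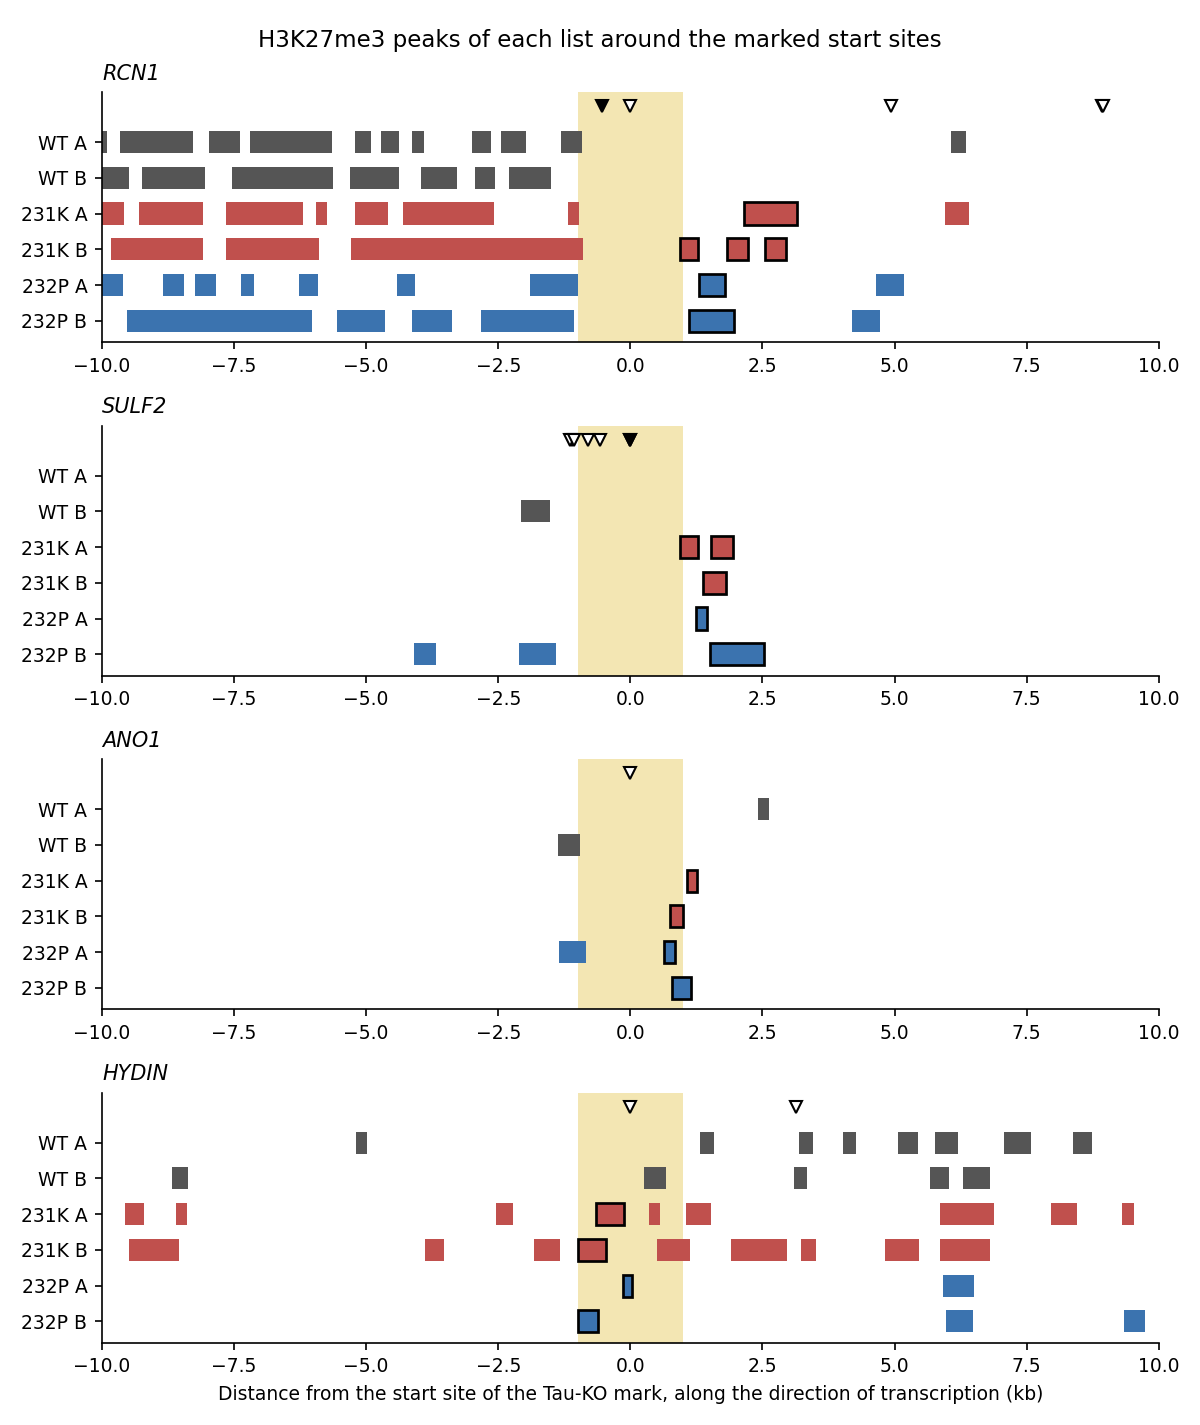
Peaks of the 6 lists (rows) within 10 kb of the start site that the Tau-KO mark reaches, for RCN1, SULF2, ANO1 and HYDIN (panels), with distance in kb along the direction of transcription. The shaded band is the 1 kb on each side of the start site, outlined bars are peaks of the mark, and triangles are annotated start sites (filled for the main one). The outlined bars do not stand in register between lists, and a WT bar touches the upstream edge of the band for RCN1 and ANO1 and lies inside it for HYDIN.

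HYDIN carried many peaks, nearly all of them in the downstream part of the gene. Of the 408 peaks in the gene body over the 6 lists, 398 lay downstream of its midpoint at 71016403, on the side of the mark, and 6 of the 10 others were those of WT B. Its 428639 bp with 20 kb on each side held 89 and 76 peaks in WT A and B, 86 and 77 in 231K A and B, and 37 and 50 in 232P A and B. Numbers in 231K were close to those in WT and those in 232P were lower, as for the lists as a whole. Fold enrichments of these 415 peaks ran from 2.16 to 8.41, and the strongest peak of each list had a value between 6.42 and 8.41, above its peak in the mark in all 4 Tau-KO lists. The main HYDIN TSS had no peak in any list. Of the 114 marks in the locus, 17 were in all 6 lists, 1 was in all 4 Tau-KO lists and no WT list, and 2 were in both WT lists and no Tau-KO list. Over the whole genome these numbers were 33889, 173 and 6290 of 279786 marks.

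Across the loci, the share under peaks was taken over the gene with 20 kb on each side. By group means it fell from RCN1 to HYDIN, ANO1 and SULF2 in every genotype. This share includes the mark by which each gene was chosen, and no test was made of it. For RCN1 it was 35.2% ± 5.09 in WT, 36.6% ± 7.0 in 231K and 24.8% ± 17.9 in 232P (mean ± SD, n = 2). The genotypes overlapped. For HYDIN it was 9.94% ± 1.08 in WT, 11.7% ± 3.74 in 231K and 4.93% ± 2.84 in 232P, and for ANO1 1.63% ± 0.537, 2.54% ± 1.49 and 0.902% ± 0.0926. In both genes the 231K lists overlapped the WT lists and both 232P lists lay below WT. For SULF2 it was 0.165% ± 0.233 in WT, 0.350% ± 0.129 in 231K and 0.690% ± 0.793 in 232P. These genotypes overlapped as well, and outside the mark SULF2 had 563 bp under peaks in WT B, 1121 bp in 232P B and 0 bp in the other 4 lists.

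**Figure D3:**
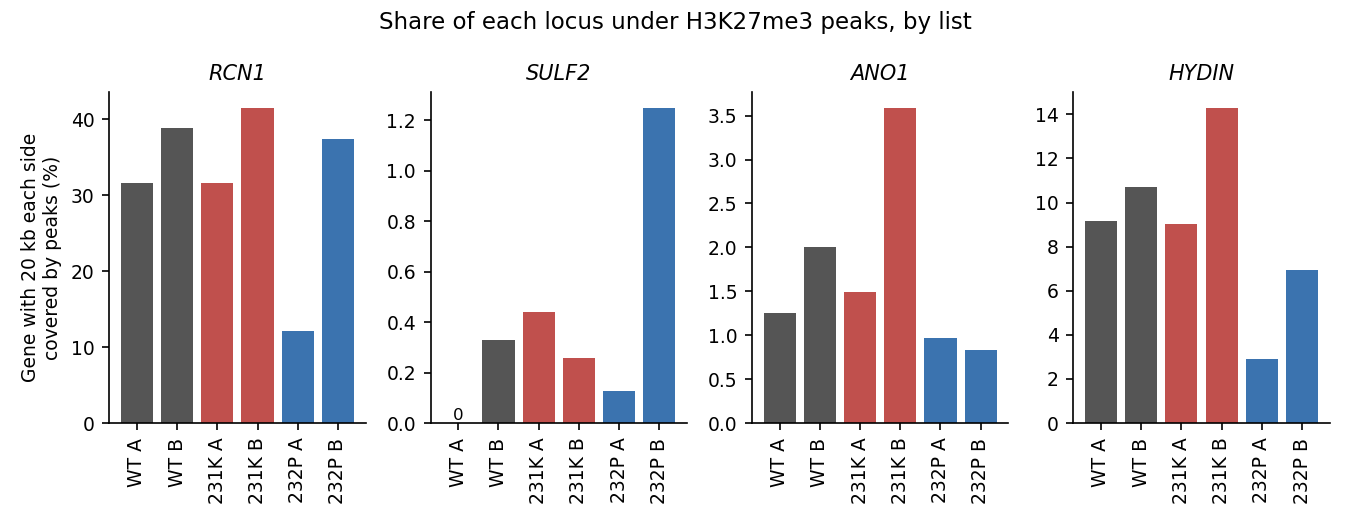
Share (%) of each gene with 20 kb on each side that lay under peaks, by list, with a separate vertical scale from 0 for each gene. RCN1 is covered by 12.1% to 41.5% in every list, SULF2 by at most 1.25%, and WT A has none at SULF2.

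Few reads stood behind the 16 Tau-KO values at the marks. A peak at the floor needed at least 5 reads at its summit in every list, and the strongest peaks of the marks had 6 to 13 reads. Their -log10 q ranged from 1.20 to 5.59, and the highest -log10 q in the 4 loci was 12.5, in the domain upstream of RCN1 in 231K B. In 232P A the peak of each of the 4 marks had the same values, a fold enrichment of 3.48 and a summit of 6 reads, which 20.8% of the peaks of that list fell below by -log10 q. In the other lists this rank ran from 27.5% (231K B) to 81.9% (231K A) for RCN1, from 51.4% (232P B) to 73.5% (231K A) for SULF2, from 11% (232P B) to 59.1% (231K B) for ANO1 and from 2.09% (232P B) to 90.5% (231K A) for HYDIN. A peak missing from a WT list means that its summit stayed under the calling threshold there, not that H3K27me3 was absent, and in bulk chromatin more cells with the mark and more mark per cell cannot be told apart.

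**Figure D4:**
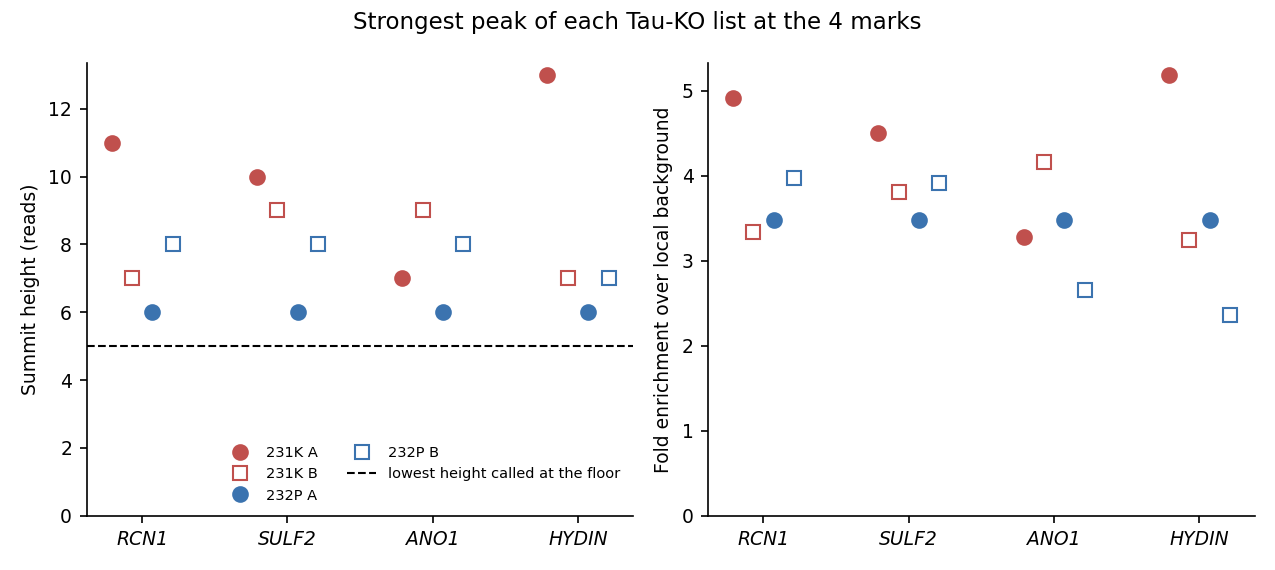
Strongest peak of each Tau-KO list at the marks of RCN1, SULF2, ANO1 and HYDIN, as summit height in reads (left) and as fold enrichment over the local background (right), with red for 231K, blue for 232P, filled circles for replicate A and open squares for replicate B. All 16 heights lie between 6 and 13 reads, above the dashed line at 5 reads, the lowest height called at the floor.

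The Tau-KO lines were compared with each other. The rule did not use the difference between them, but it required a peak in all 4 Tau-KO lists. Every value compared thus had to pass the calling threshold. The values are those of the strongest peak of each list, and at RCN1 the strongest peaks of 231K and 232P did not overlap. Fold enrichment at the RCN1 mark was 4.13 ± 1.12 in 231K and 3.73 ± 0.348 in 232P (mean ± SD, n = 2, log2 ratio 0.15), and the values overlapped (exact permutation test, two-sided, p = 1, adjusted over the 4 genes 1). The SULF2 mark had 4.16 ± 0.496 in 231K and 3.70 ± 0.305 in 232P (log2 ratio 0.17, exact permutation p = 0.667, adjusted 0.889). For ANO1 the values were 3.72 ± 0.628 and 3.07 ± 0.581 (log2 ratio 0.28, exact permutation p = 0.667, adjusted 0.889). At HYDIN they were 4.22 ± 1.37 and 2.92 ± 0.790 (log2 ratio 0.53, exact permutation p = 0.667, adjusted 0.889). With 2 lists against 2 the smallest p possible is 0.33, so that this design could not detect a difference of any size at 0.05. The direction was not stable for RCN1, where leaving out 231K A turned the log2 ratio to -0.16, nor for ANO1, where summit height per background floor gave -0.12.

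The same merged pattern was found at the TSS of only 2 other protein-coding genes, OR10H5, an olfactory receptor gene, and IKBKE, a kinase of the innate immune response. By the lowest percentile of -log10 q in the 4 Tau-KO lists, the order was OR10H5 (44.2), RCN1 and SULF2 (both 20.8), ANO1 (11), IKBKE (2.19) and HYDIN (2.09). OR10H5 had peaks of its own at the TSS in all 6 lists. IKBKE had none in WT and had them in 2 Tau-KO lists, so that it too was not marked in all 4 by their own peaks. The near edges of the marks were 934 bp (RCN1), 938 bp (SULF2) and 643 bp (ANO1) from the start site, inside a limit of 1000 bp, and the HYDIN mark covered its start site. With 2.5 kb on each side, GLRA3, PPFIA2 and RERGL joined the 6 genes, and with 500 bp only HYDIN and OR10H5 were left.

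Of 17 genes with a TSS within 20 kb of the 4 genes, 11 had no TSS peak in any list, 3 had a peak in all 6 and 3 in some. Of all protein-coding genes, 78.1% had none and 11.4% had a peak in all 6. Only FADD and VAC14 among the 17 are protein-coding, no share was taken for other gene types, and nothing is read from these counts. FADD, an adaptor of death receptors that neighbours ANO1, VAC14, a scaffold of phosphoinositide metabolism that neighbours HYDIN, and ANO1-AS1 were among those without a peak. EIF4A2P5 and a U3 small nucleolar RNA gene, both in the domain beside RCN1, and RNU6ATAC25P beside HYDIN had a TSS peak in all 6 lists. The only annotated neighbour of SULF2 within 20 kb, a long non-coding RNA gene, had none. Beside ANO1, LINC02584 and RNU6-1175P were marked in 231K B alone and the non-coding gene ENSG00000255191 in WT B and 3 Tau-KO lists.

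Within the gene families of the 4 genes, no gene, the 4 included, had a TSS peak of each list's own in all 4 Tau-KO lists and neither WT list. The counts below stand beside 11.4% of all protein-coding genes marked in all 6 lists and 78.1% in none, and nothing particular to a family is read from them. Of the 5 CREC calcium-binding proteins, RCN1 was marked in all 6 lists and the other 4 in none. Of 20 sulfatases and heparan sulfate enzymes, 5 were marked in all 6 lists, among them SULF1, the paralogue of SULF2, and 10 in none. The other 5 were SULF2, HS6ST2, HS6ST3, HS3ST6 and NDST4. HS6ST3 was marked in 231K B alone, and HS6ST2 and NDST4 were each marked in both WT and 3 Tau-KO lists. Of 10 anoctamins, ANO2 and ANO4 were marked in all 6 lists, ANO9 in WT A alone, ANO1 as above and 6 in none. Of 12 genes of the ciliary central apparatus, HYDIN, SPAG17 and CFAP47 were marked in all 6 lists, CFAP221 in 232P A alone and 8 in none.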

How the data were processed

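H3K27me3 ChIP (antibody C36B11) was sequenced in SH-SY5Y cells of 3 genotypes with 2 replicates each, and 6 peak lists were used. The 6 input samples were not analysed here. Read trimming (trimmomatic), alignment to HG38 (BWA) and peak calling for each sample (MACS version 2) were done by the authors. Their methods name the broadPeak setting, whereas each deposited list is in narrowPeak format with 10 columns and holds more peaks than the methods give per sample. The threshold, fragment length, treatment of duplicates and control are not given in the sources used here. Single peaks in the lists labelled 232P carry names that start with 231P, and groups were taken from the labels. As deposited, fold enrichment is a ratio of summit height to local background, with 1 read added to each. The deposited columns of -log10 p-value and -log10 q-value refer to the summit, the deposited score is the whole part of 10 times the -log10 q, and the last deposited column is the summit position within the peak.

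Height and background were recovered from fold enrichment and p-value with the Poisson distribution, within 0.001 of the -log10 p, and 4 of 1338572 peaks were not resolved. Since the lists give no read totals, no counting interval can be given. Peaks overlapping by 1 bp were merged to marks. Start sites were those of GENCODE release 44, and chrM was left out. A list was called marked at a TSS by its own peaks. Sequences came from hg38 and RefSeq, and near-copies from blastn 2.17.0 at an E-value of at most 1e-20. 231K and 232P were compared by exact permutation tests in Python 3.11.15 with scipy 1.17.1, with Benjamini-Hochberg adjustment over 4 tests. The steps were tested on simulated data.

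Genes named are the 4 chosen ones, the other genes with the same merged pattern, genes with a TSS within 20 kb, and family and marker lists. The result for 1 gene of the marker lists and 1 sequence are not reported here. The 4 genes and all lists were chosen with earlier results of these data known. Alternatives were a -log10 q of at least 5, a q-value under 0.05, equal numbers of peaks, merging over 1 kb, presence by gene, windows of 500 bp and 2.5 kb, main transcripts, and leaving out each list, and for the line comparison summit height per floor, -log10 q, mean over peaks and a replicate block. Presence by start site was added after seeing the data.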

Additional observations from a re-analysis of the deposited data

How the results depend on the processing

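The number of the 4 genes with a merged TSS mark in all 4 Tau-KO and neither WT list (4) was 0 at a -log10 q of at least 5, 0 with presence by gene, 0 with presence by start site (chosen after seeing the data), 2 at a q-value under 0.05 (ANO1 and SULF2), and 1 with equal numbers of peaks (SULF2), with 500 bp (HYDIN) and with main transcripts (SULF2). It ran from 2 to 4 when 1 list was left out. Without 231K A it held ANO1 and RCN1, without 231K B ANO1 and HYDIN, and without 232P B HYDIN and SULF2. Over all protein-coding genes the count (6) became 20 with equal numbers of peaks and 2 with presence by gene, 500 bp or main transcripts, and ran from 7 to 58 with 1 list left out (33 without WT A, 58 without WT B, 14 without 231K A, 46 without 232P A and 20 without 232P B). The opposite count (143) became 68 at a -log10 q of at least 5, 65 with equal numbers, 55 with merging over 1 kb, 40 with presence by gene, 92 with 500 bp, 268 with 2.5 kb and 75 with main transcripts, and ran from 170 to 759 with 1 list left out (547 without WT A, 759 without WT B, 217 without 231K A and 313 without 231K B). The causes were not tested. The log2 ratios of 231K to 232P ran from -0.16 to 0.401 for RCN1 with 1 list left out, negative only without 231K A, from 0.0436 (without 231K A) to 0.287 for SULF2, from 0.0959 (without 231K B) to 0.487 for ANO1 and from 0.153 (without 231K A) to 0.836 for HYDIN, and the ANO1 ratio was -0.117 as summit height per floor. With a replicate block, the ratios were 0.147 for RCN1, 0.171 for SULF2, 0.279 for ANO1 and 0.53 for HYDIN, as without it, and the smallest p possible was 0.5. The labels do not say that a replicate letter marks a shared batch. In the other alternatives all 4 ratios kept their direction, and none of these tests could reach the threshold.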

Other observations

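By the lists' own peaks, MAGEA8 and VSTM2A were the 2 protein-coding genes with a TSS peak in all 4 Tau-KO lists and neither WT list, and they are named after their values were seen. At MAGEA8, an X-linked gene of a family expressed mainly in testis and tumours, the fold enrichments were 3.08 in 231K A, 5.84 in 231K B, 2.71 in 232P A and 4.86 in 232P B. At VSTM2A they were 2.98, 2.86, 3.26 and 3.61 in the same order. The number of genes with the opposite pattern was 40. None of the 4 genes described above had such a pattern, and HYDIN and RCN1 were among the 2281 genes with a TSS peak in all 6 lists.

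Of the 7 start sites of HYDIN with a peak in any list, 4 were marked in more Tau-KO than WT lists, the chosen one included, and 3 in more WT than Tau-KO lists, with 4 Tau-KO lists against 2 of WT. Of these 3, the TSS at 71186798 had a peak in WT B alone. The TSS at 70962015 had a peak in both WT lists and 1 Tau-KO list (231K A), and the TSS at 70863170 had a peak in both WT lists and 1 Tau-KO list (231K B). A start site of RCN1 at 32096534, that of a retained-intron transcript, had a peak in 232P A and 232P B and in no other list. These differences were not tested.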
